A study of Triticum aestivum with 15 samples.

Results

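Proline accumulates in the leaves of many plants when water runs short. It is made from glutamate in a short pathway, in which delta-1-pyrroline-5-carboxylate synthase (P5CS) catalyses the rate-limiting step and a reductase (P5CR) completes the synthesis. It is broken down in mitochondria, where proline dehydrogenase (PRODH) catalyses the entry step. Bread wheat is a hexaploid with A, B and D genomes, so that a gene is usually present as 3 homoeologous copies. The 6 loci described here were chosen by their locus numbers in the merged transcript catalogue of the study, in which they carry the products P5CS2 (chromosomes 3A, 3B and 3D) and PRODH2 (chromosomes 1A, 1B and 1D). The catalogue holds 122017 loci, of which 47054 were tested, and the 6 loci were all among those tested.

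The leaves came from 2 winter wheat cultivars, TAM112 and TAM111, grown in pots. Each library is a pool of flag leaves from 4 plants, taken either in the middle of grain filling (GF, day 100 after transplanting) or at heading (HD, day 79). The dry treatment held the pots at about 50% gravimetric water content, and the wet treatment held them at 90%. The groups were TAM112 GF dry, GF wet, HD dry and HD wet, and the same 4 groups of TAM111, with 2 libraries each except TAM111 HD wet with 1 library, which makes 15 in all. The deficit began at the jointing stage, before both samplings, so GF dry plants had been under it for longer than HD dry plants. The stages thus differ in sampling day, plant age and, under dry, length of the deficit, which cannot be told apart.

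The unit is FPKM, a fragment count scaled to transcript length and to the mapped fragments of the library, as Cufflinks gave it for each library. The depth estimated from the confidence bounds of the entries was between 6680000 and 8850000 fragments per library, to 3 digits. This estimate is indirect. It lies well below the number of reads per sample that the paper gives, and the gap was not resolved. All 6 green leaf markers (chlorophyll a-b binding proteins, a photosystem II polypeptide and Rubisco activases) were above 0 in all 15 libraries, with a summed level of 264 to 544 FPKM in GF dry, 37.2 to 336 FPKM in GF wet, 176 to 260 FPKM in HD dry and 87.3 to 145 FPKM in HD wet libraries. Of these 6 markers, 1 was called higher under dry at GF in each cultivar (the photosystem II polypeptide) and 0 lower (limma, adjusted p below 0.05 and at least 2-fold). Of all loci, 4.03% were called higher and 1.79% lower in TAM112, and 1.70% and 1.07% in TAM111. The chlorophyll a-b binding loci had lower means under dry at GF, with overlapping libraries. In TAM112 these were 5.50 and 2.07 FPKM, against 27.1 and 11.8 FPKM under wet, and in TAM111 6.88 and 2.45, against 10.7 and 7.55. Rubisco activase means were higher in TAM111 and mixed in TAM112. The part of leaf composition in the results below was not tested. A pair of TAM111 libraries stood apart from their labels at loci found in only 1 cultivar. Among 66 loci present in only TAM112 at GF, 39.4% were above 0.1 FPKM in replicate 1 of TAM111 HD dry, against 4.55% in replicate 2 of that group. Among 105 loci present in only TAM112 at HD, 50.5% were above 0.1 FPKM in replicate 1 of TAM111 GF wet, against 21.0% in replicate 2.

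The 3 P5CS2 copies lie on the plus strand of IWGSC RefSeq v1.0, which splits each chromosome into parts. The 3A copy XLOC_038670 (reference gene TraesCS3A01G363700) spans chr3A_part2:157860605-157867284, the 3B copy XLOC_044951 (TraesCS3B01G395900) spans chr3B_part2:175669147-175676048 and the 3D copy XLOC_049806 (TraesCS3D01G357200) spans chr3D_part1:469479553-469486472. Their catalogue transcripts hold between 18 and 21 exons, and each copy was listed as a single entry in every library. The 3D copy was also the target of the study's RT-qPCR assay, whose primers are shown here because they mark the one member measured by a second method in the study; the qPCR values were not used here.
XLOC_049806 forward primer: gaaatggcgcttgacatag
XLOC_049806 reverse primer: ctagttttgttcacccctgt
The forward primer is 19 nt long and the reverse primer 20 nt. Whether they also match the 3A and 3B copies was not tested.

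At GF, the 3 P5CS2 copies stood between 149 and 515 FPKM under dry and between 0.761 and 4.62 FPKM under wet in both cultivars. The 3B copy was the most highly expressed, with 515 and 424 FPKM in TAM112 dry libraries, against 2.62 and 4.13 FPKM in TAM112 wet libraries. In TAM111 it reached 368 and 283 FPKM under dry, against 2.79 and 4.62 FPKM under wet. Dry and wet libraries of the 3B copy did not overlap, as was so for all 3 copies; every dry library was above every wet one at 28.4% of all loci in TAM112 and at 29.6% in TAM111, so separation by itself was common. The 3B means differed 139-fold in TAM112 and 87.8-fold in TAM111. The 3D copy had 366 and 293 FPKM in TAM112 dry libraries, against 0.989 and 3.46 FPKM in wet ones. In TAM111, the 3D copy had 232 and 198 FPKM under dry, against 0.852 and 1.14 FPKM under wet. The 3A copy, the lowest of the 3 under dry at GF, had 274 and 211 FPKM in TAM112 dry libraries, against 0.847 and 3.15 FPKM in wet ones, and 174 and 149 FPKM in TAM111 dry libraries, against 0.761 and 2.78 FPKM in wet ones. On the log2(FPKM + 1) scale of the test, which understates the change of low values, the dry minus wet difference at GF was 6.77 ± 0.60 (SE) for 3B, 6.79 ± 0.55 for 3D and 6.45 ± 0.54 for 3A in TAM112, with adjusted p between 0.000579 and 0.000848. In TAM111 it was 6.13 ± 0.60 for 3B, 6.76 ± 0.55 for 3D and 5.97 ± 0.54 for 3A, with adjusted p between 0.000622 and 0.00141. Without the pair of libraries that stood apart, the TAM111 changes were 5.85 for 3B, 6.65 for 3D and 5.42 for 3A (adjusted p between 0.00904 and 0.0151). All 3 copies were thus called higher under dry in both cultivars at GF, where called means an adjusted p below 0.05 and at least a 2-fold change. Of all loci tested, 4.03% were called higher in TAM112 and 1.70% in TAM111 at GF. These calls and those of PRODH2 below borrow the spread of all 15 libraries: with only the 4 libraries of each comparison in the limma fit, the P5CS2 adjusted p lay between 0.076 and 0.0806 and 0 of all loci were called at GF in either cultivar, with the 3 P5CS2 copies and the 1B and 1D copies of PRODH2 at an unadjusted p below 0.05 in both. The wet values rest on little RNA: the bounds imply about 9.39 to 58.5 fragments for 3A in GF wet libraries, against 1655 to 2097 in GF dry libraries. As these are pools of leaf tissue, a change in the share of cells with a transcript and a change in RNA per cell cannot be told apart.

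**Figure D1:**
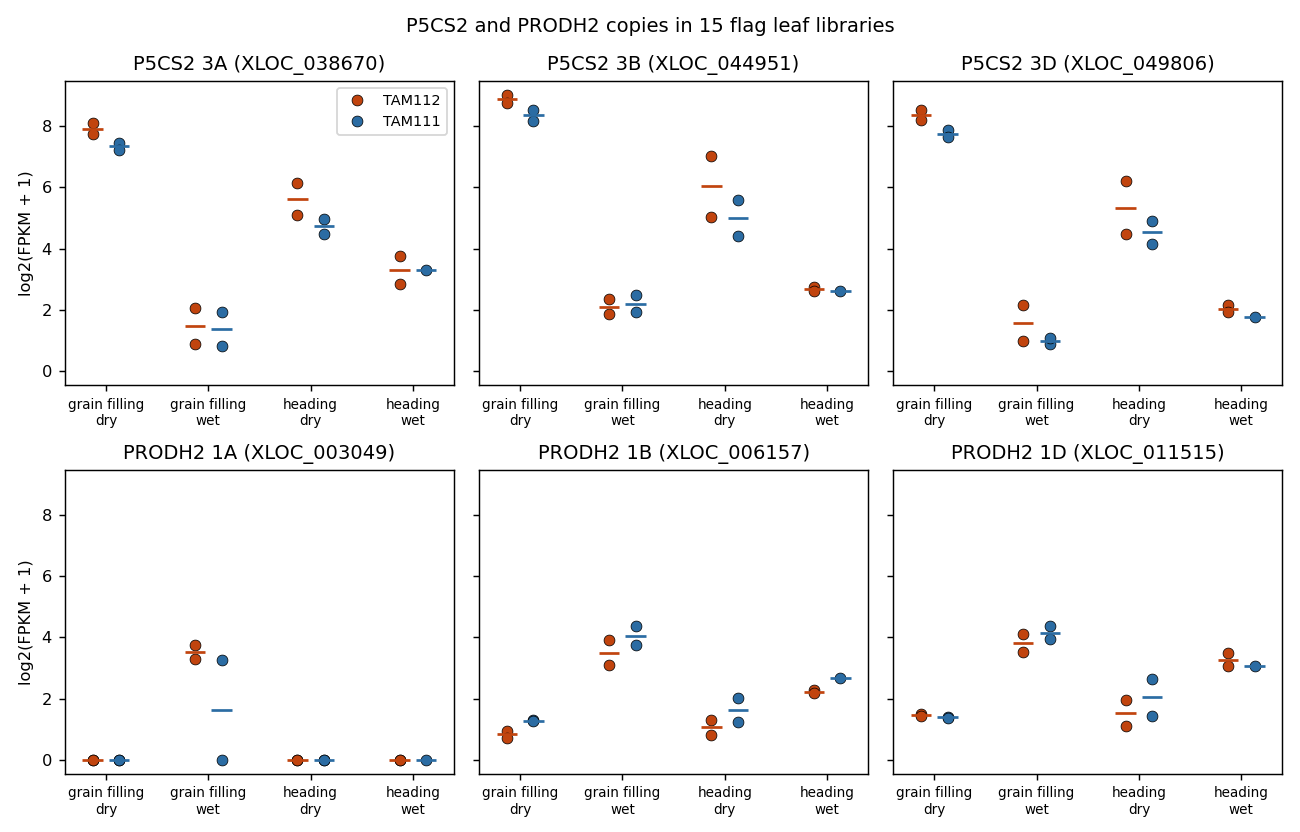
Level of each copy on the log2(FPKM + 1) scale by stage and treatment, with 1 point per library (TAM112 orange, TAM111 blue) and a bar at the mean of each group. The P5CS2 copies of the upper row separate dry from wet libraries at both stages and by most at GF, the PRODH2 copies on 1B and 1D of the lower row run the other way, and the 1A locus is above 0 in 3 GF wet libraries only.

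At HD, the P5CS2 copies were also higher in every dry library than in every wet library of the same cultivar, by smaller folds. Such a separation at HD was seen at 22.8% of all loci in TAM112 and at 30.6% in TAM111, and at 3.52% of all loci it held in all 4 pairs of dry and wet groups. The 3B copy had 129 and 31.7 FPKM in TAM112 dry libraries, against 5.64 and 5.13 FPKM in wet ones, and 20.4 and 47.2 FPKM in TAM111 dry libraries, against 5.06 FPKM in the single wet one. The 3D copy had 72.2 and 21.1 FPKM in TAM112 under dry, against 3.48 and 2.78 FPKM under wet, and 16.7 and 29.1 FPKM in TAM111 under dry, against 2.40 FPKM under wet. The 3A copy had 68.9 and 33.2 FPKM in TAM112 dry libraries, against 12.6 and 6.13 FPKM in wet ones, and 21.4 and 30.04 FPKM in TAM111 dry libraries, against 8.84 FPKM in the wet one. Replicate 1 of TAM112 HD dry was well above its partner for every P5CS2 copy, so the spread within the dry group at HD was wide. The ratio of the means was 14.9 for 3B, 14.9 for 3D and 5.44 for 3A in TAM112, and 6.68 for 3B, 9.52 for 3D and 2.91 for 3A in TAM111. Of the 3 copies, only 3D in TAM112 was called at HD, with a log2 change of 3.29 ± 0.55 (adjusted p = 0.0466), where 0.302% of all loci were called higher. For 3B in TAM112 the change was 3.35 ± 0.60 (adjusted p = 0.0568) and for 3A it was 2.31 ± 0.54 (adjusted p = 0.154). The call of 3D was lost without replicate 1 of TAM112 HD dry (adjusted p = 0.139), without replicate 1 of TAM112 HD wet (0.124) and without replicate 2 of TAM112 HD wet (0.184), and without replicate 2 of TAM112 HD dry both 3D and 3B were called (adjusted p = 0.00963 and 0.00794). In TAM111 at HD, 0 of the 3 copies were called (limma adjusted p between 0.181 and 0.65, with 2 of the 3 at an unadjusted p below 0.05), and 0.0531% of all loci were called higher. Without the pair of libraries that stood apart, these changes were 2.99 for 3B, 3.15 for 3D and 1.66 for 3A (adjusted p between 0.278 and 0.602), and the call of 3D in TAM112 was lost (adjusted p = 0.128), although neither library belongs to TAM112.

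PRODH2 moved in the opposite direction, and its levels were lower than those of P5CS2 under dry. The 1B copy XLOC_006157 (TraesCS1B01G223300) spans chr1B_part1:400771485-400773766 and the 1D copy XLOC_011515 (TraesCS1D01G212400) spans chr1D_part1:298068129-298070585, both on the plus strand with 3 exons in the transcript used. At GF, the 1D copy had 1.81 and 1.73 FPKM in TAM112 dry libraries, against 16.2 and 10.5 FPKM in wet ones. In TAM111 it had 1.67 and 1.55 FPKM under dry, against 14.3 and 19.6 FPKM under wet. The 1D values under dry were thus close in all 4 libraries, and none of them overlapped with a wet library. Every dry library was below every wet one at 17.4% of all loci in TAM112 and at 15.9% in TAM111. The 1D values under dry rest on about 8 to 9.59 fragments, against 54.1 to 128 under wet. These are too few to tell whether the dry levels are the same. For 1B under dry it was 5 to 8 fragments where the lower bound was above 0. The 1B copy had 0.912 and 0.655 FPKM in TAM112 GF dry libraries, against 13.9 and 7.49 FPKM in wet ones, and 1.47 and 1.40 FPKM in TAM111 dry libraries, against 19.5 and 12.4 FPKM in wet ones. The dry mean was 13.7-fold below the wet mean for 1B and 7.54-fold below it for 1D in TAM112, and 11.1-fold and 10.5-fold below it in TAM111. Short entries assembled inside an intron are part of these wet means. They make up 6.14 of the 13.9 FPKM of 1B in TAM112. In TAM111 they make up 7.56 of the 19.5 FPKM of 1B and 7.94 of the 19.6 FPKM of 1D. In this order, the intron entries span 374, 378 and 276 bp and rest on about 7, 9 and 5 fragments. The main entries of the same loci and libraries rest on 58.7, 80.2 and 91.3. Without the intron entries these 3 folds would be smaller. On the log2 scale, 1B changed by -2.66 ± 0.37 in TAM112 (adjusted p = 0.00464) and by -2.77 ± 0.37 in TAM111 (adjusted p = 0.00542). The 1D copy changed by -2.34 ± 0.43 in TAM112 (adjusted p = 0.0156) and by -2.77 ± 0.43 in TAM111 (adjusted p = 0.0112). Without the pair of libraries that stood apart, the TAM111 changes were -2.46 for 1B (adjusted p = 0.036) and -2.98 for 1D (adjusted p = 0.026). Of all loci tested, 1.79% were called lower in TAM112 and 1.07% in TAM111 at GF. The 1B calls were kept without any single library of the 2 groups compared (adjusted p up to 0.0428). The 1D call was lost in TAM112 without replicate 1 or 2 of GF dry (adjusted p = 0.0782 and 0.0523) or replicate 1 of GF wet (0.0857), and in TAM111 without replicate 1 or 2 of GF dry (0.0635 and 0.0587) or replicate 2 of GF wet (0.067).

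At HD, the 1B and 1D copies were lower in every dry library than in every wet library of the same cultivar, which was also so at 15.2% of all loci in TAM112 and at 31.8% in TAM111. At 2.49% of all loci it held in all 4 pairs of dry and wet groups. At HD, 0 of these 2 copies were called in either cultivar (limma, with 2 in TAM112 and 1 in TAM111 at an unadjusted p below 0.05). The background there was 0.140% of loci called lower in TAM112 and 0.417% in TAM111. The 1D copy had 1.13 and 2.91 FPKM in TAM112 dry libraries, against 10.1 and 7.33 FPKM in wet ones, and 5.29 and 1.73 FPKM in TAM111 dry libraries, against 7.33 FPKM in the wet one. The 1B copy had 0.761 and 1.46 FPKM in TAM112 under dry, against 3.82 and 3.54 FPKM under wet, and 3.04 and 1.35 FPKM in TAM111 under dry, against 5.39 FPKM under wet. In TAM111 the higher dry value of both copies belongs to replicate 1, one of the pair of libraries that stood apart. The log2 change was -1.73 ± 0.43 for 1D (adjusted p = 0.182) and -1.17 ± 0.37 for 1B (adjusted p = 0.302) in TAM112, and -1.01 ± 0.53 for 1D (adjusted p = 0.736) and -1.05 ± 0.45 for 1B (adjusted p = 0.58) in TAM111. Without the pair that stood apart, the TAM111 changes were -1.61 for 1D and -1.44 for 1B (adjusted p = 0.35 and 0.351). At HD the bounds imply 7 to 14 fragments for 1B and 6 to 21.5 for 1D in dry libraries where the lower bound was above 0, against 18.9 to 34.3 for 1B and 39.5 to 51.8 for 1D in wet libraries.

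**Figure D2:**
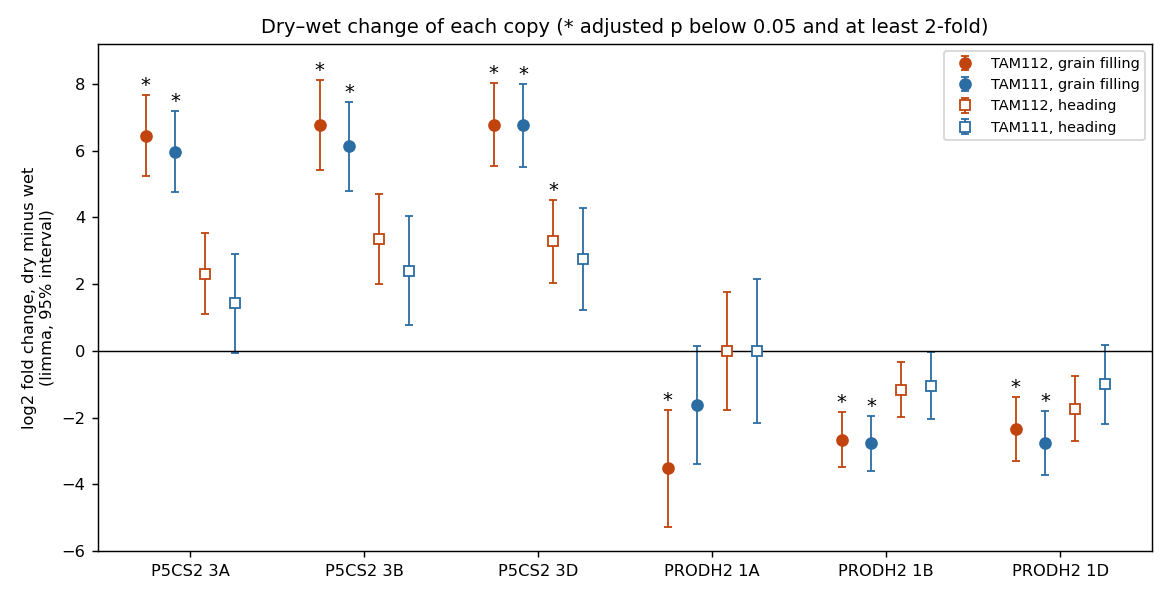
Log2 fold change, dry minus wet, of each copy in each cultivar and stage from limma, with its 95% interval; filled circles are GF, open squares HD, and a star marks an adjusted p below 0.05 with at least a 2-fold change. All P5CS2 changes at GF lie between 5.97 and 6.79, above those at HD (1.42 to 3.35), and the PRODH2 changes lie at or below 0; the 1A locus, star included, passed the filter only through GF wet libraries.

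The locus given as the 1A copy of PRODH2 differs in kind from the other members. XLOC_003049 spans chr1A_part1:371219177-371219624 and is a single exon of 448 bp with no strand and no reference gene. It was listed in only 3 of 15 libraries, all GF wet, at 8.89 and 12.3 FPKM in TAM112 and at 8.46 FPKM in replicate 2 of TAM111; it has no entry in the other 12 and was read as 0 there. These values rest on about 8, 6 and 17 fragments, assembled as stretches of 338, 283 and 448 bp, while the main 1B entry rests on 36.2 to 96.2 fragments in GF wet libraries. The locus ends 199 bp before XLOC_001106 (TraesCS1A01G209100, chr1A_part1:371219824-371221600, plus strand), a reference gene that is not among the members and was looked at after its values were seen. In 1 of its 3 catalogue transcripts XLOC_001106 has a middle exon of 884 bp, the length of the middle exon in the single 1B transcript and in 1 of the 2 transcripts of 1D; the other transcripts have no exon of that length. From the start of XLOC_003049 to the end of the first exon of XLOC_001106 is 824 bp, beside first exons of 763 bp in 1B and 774 bp in 1D. The files at hand give no sequence for these loci, so whether the 2 loci on 1A belong to 1 gene was not tested.

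**Figure D3:**
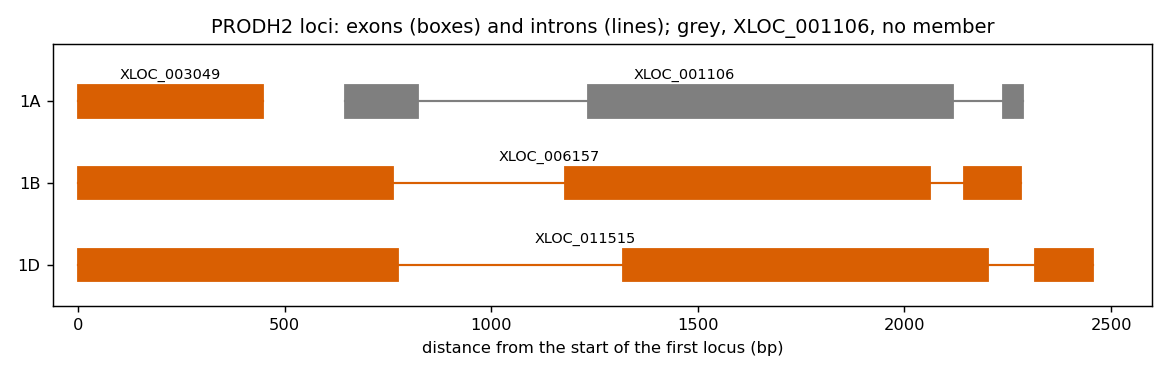
Exons (boxes) and introns (lines) of the PRODH2 loci by distance in bp from the start of the first locus in each row, with the neighbouring reference locus XLOC_001106 on 1A in grey at its distance from the 1A member. One transcript is drawn per locus and the rows are aligned at their starts, not by sequence; an exon of 884 bp occurs in the transcripts drawn for XLOC_001106, 1B and 1D, and the 1A member is a single box of 448 bp.

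XLOC_003049 reached 1 FPKM in only those 3 GF wet libraries and so passed the filter on low values only through the group in which it is high. A lower level under dry was thereby fixed in advance, and with no entry in any dry library the fitted change also depends on the pseudocount. Its values are therefore given as a description: 0 in both GF dry libraries of each cultivar, against 8.89 and 12.3 FPKM in TAM112 GF wet libraries and 0 and 8.46 FPKM in TAM111 GF wet libraries. The library at 0 is replicate 1 of TAM111 GF wet, one of the pair that stood apart. The neighbouring XLOC_001106 had entries in every library, reached 1 FPKM in 4 libraries, all of them wet, and is likewise described without a test. At GF it was listed at 0 in both TAM112 dry libraries, against 1.45 and 0.333 FPKM in wet ones, and at 0.351 and 0 FPKM in TAM111 dry libraries, against 3.76 and 2.75 FPKM in wet ones.

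Averaged over the 4 pairs of dry and wet groups, the log2 change was 4.90 ± 0.29 for 3D, 4.66 ± 0.32 for 3B and 4.04 ± 0.29 for 3A of P5CS2, and -1.96 ± 0.23 for 1D and -1.91 ± 0.19 for 1B of PRODH2. These 5 were all called, with and without the pair of libraries that stood apart, beside 2.65% of all loci called higher and 1.74% called lower.

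The 3B and 3D copies of P5CS2 were called higher at GF than at HD under dry in both cultivars, 3A was not, and no copy was called under wet. Under dry, every GF library of a cultivar was above every HD library for all 3 copies, and the GF minus HD difference was 3.03 ± 0.55 for 3D (adjusted p = 0.0266), 2.85 ± 0.60 for 3B (adjusted p = 0.0396) and 2.30 ± 0.54 for 3A (adjusted p = 0.054) in TAM112. In TAM111 it was 3.22 ± 0.55 for 3D (adjusted p = 0.0324), 3.33 ± 0.60 for 3B (adjusted p = 0.0389) and 2.62 ± 0.54 for 3A (adjusted p = 0.0622). Of all loci, 1.93% were called higher in TAM112 and 0.822% in TAM111, and every GF dry library was above every HD dry one at 25.8% of all loci in TAM112 and at 27.03% in TAM111. Without the pair of libraries that stood apart, neither 3B nor 3D was called in either cultivar (adjusted p between 0.0758 and 0.234). These calls were lost easily: in TAM111 neither was kept without any 1 of the 4 libraries, and in TAM112 neither was kept without replicate 1 of GF dry or replicate 2 of HD dry and only 3D was kept without replicate 2 of GF dry. Under wet, P5CS2 was lower at GF than at HD in the group means of all 3 copies. For 3A the GF values were 0.847 and 3.15 FPKM, against 12.6 and 6.13 FPKM at HD, in TAM112 (-1.83 ± 0.54, adjusted p = 0.353). Changes of 3B and 3D under wet lay between -0.77 and -0.39, and 0 of 3 copies were called in either cultivar (limma, 1 at an unadjusted p below 0.05 in each, which was 3A), beside 0.200% of all loci called in either direction in TAM112 and 0.193% in TAM111.

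PRODH2 did not differ between the stages past the threshold. Under dry, the GF minus HD difference of 1B and 1D lay between -0.67 and -0.06 and 0 were called (limma, 0 at an unadjusted p below 0.05 in either cultivar), beside 3.08% of all loci called in either direction in TAM112 and 1.04% in TAM111. Under wet, both copies were higher at GF by 1.27 ± 0.37 for 1B and 0.55 ± 0.43 for 1D in TAM112 and by 1.38 ± 0.45 and 1.09 ± 0.53 in TAM111, with adjusted p between 0.341 and 0.791. The 1B values under wet were 13.9 and 7.49 FPKM at GF, against 3.82 and 3.54 FPKM at HD, in TAM112, and 19.5 and 12.4 FPKM at GF, against 5.39 FPKM at HD, in TAM111. Libraries of the 2 stages did not overlap there, and GF libraries were all above HD ones at 18.1% of all loci in TAM112 and at 29.5% in TAM111. The 13.9 and 19.5 FPKM of 1B include entries inside an intron of 6.14 and 7.56 FPKM. The 1A locus had no entry in any HD library.

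The difference between the dry–wet changes at GF and at HD was tested as an interaction, in which stage and length of the deficit cannot be told apart. For P5CS2 in TAM112 it was 4.14 ± 0.76 for 3A, 3.42 ± 0.84 for 3B and 3.50 ± 0.78 for 3D, and in TAM111 it was 4.55 ± 0.85, 3.73 ± 0.94 and 3.998 ± 0.87. By cultivar, 0 of 6 loci passed (limma adjusted p from 0.092, with 5 of 6 loci at an unadjusted p below 0.05 in each cultivar), beside 0.196% of all loci in TAM112 and 0.200% in TAM111. In TAM112 the 5 include the 1A locus, which passed the filter only through GF wet libraries, so its p carries no weight. The mean of this interaction over both cultivars was fitted after the separate values were seen. It was 4.34 ± 0.57 for 3A (adjusted p = 0.0205), 3.75 ± 0.59 for 3D (adjusted p = 0.0394) and 3.57 ± 0.63 for 3B (adjusted p = 0.053), beside 0.451% of all loci, and -1.61 ± 0.39 for 1B and -1.18 ± 0.46 for 1D, which did not pass (adjusted p = 0.128 and 0.325). Without the pair of libraries that stood apart, 3A and 3D no longer passed (adjusted p = 0.0664 and 0.134). Leaving out 1 library at a time, the call of 3D was lost for 10 of the 14 libraries tried, while 3A passed each time (adjusted p up to 0.0498).

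No difference between the cultivars passed the threshold at these loci. Under dry, P5CS2 was higher in TAM112 than in TAM111 by 0.53 to 0.61 at GF and by 0.80 to 1.02 at HD on the log2 scale, with adjusted p of at least 0.726. At GF under dry, the TAM112 and TAM111 libraries of 3B (515 and 424 FPKM, against 368 and 283 FPKM) and of the other P5CS2 copies did not overlap. At HD under dry the cultivars overlapped for 3B and 3D but not for 3A, where the TAM112 libraries had 68.9 and 33.2 FPKM, against 21.4 and 30.04 FPKM in TAM111. Every TAM112 library was above every TAM111 library at 18.0% of all loci at GF dry and at 18.9% at HD dry. The limma test called 0 of 6 loci for a cultivar difference in any of the 4 combinations of stage and treatment, with 1 of 6 at an unadjusted p below 0.05 at GF wet and 0 in the other 3, beside 0.646% of all loci at HD dry, 0.822% at HD wet, 1.73% at GF dry and 0.788% at GF wet. That 1 was the 1A locus, which rests on few fragments and is described above without a test, so its p carries no weight. When the dry–wet changes of TAM112 and TAM111 were set against each other as an interaction, 0 of 6 loci passed and 0 had an unadjusted p below 0.05 at either stage, beside 0.240% of all loci at GF and 0.155% at HD.

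The P5CS2 copies did not keep a fixed order. The 3B copy exceeded the 3D copy in 15 of 15 libraries, by 1.19 to 4.05-fold. Both ends of this range are GF wet libraries, where 3D rests on about 12.2 to 35.5 fragments. In GF dry libraries the fold was 1.41 to 1.58. The place of the 3A copy changed with stage and treatment. It held 22.5% to 23.7% of the summed P5CS2 FPKM in the 4 GF dry libraries, where 3B held 44.6% to 47.5% and 3D 30.003% to 31.7%. In the 4 GF wet libraries 3A held 17.3% to 32.6%, and 3B was again the highest in all 4. In the 4 HD dry libraries 3A held 25.5% to 38.6% and was the highest copy in 2. In the 3 HD wet libraries 3A held 43.7% to 58.1% and was the highest copy in all 3, at 1.19 to 2.24 times the 3B level. No dry library and no GF wet library had so large a 3A share. The log2 change of 3A at HD was the smallest of the 3 (2.31 in TAM112 and 1.42 in TAM111), which restates the same FPKM values. These shares are descriptions of 15 libraries and were not tested. Reads that map equally well to several copies can shift the shares, and how the authors' run divided them was not stated.

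Of the PRODH2 copies, 1D was the highest in 13 of 15 libraries. It exceeded 1B in 14 of 15 libraries, by up to 2.64-fold, and the exception was replicate 1 of TAM111 GF wet (0.734). There, an assembled entry of 7.56 FPKM inside the first intron of the 1B copy is added to the 11.95 FPKM of the reference transcript. Such entries lie in an intron in 2 further GF wet libraries, at 6.14 FPKM in 1B in replicate 1 of TAM112 and at 7.94 FPKM in 1D in replicate 2 of TAM111. With only the entry of largest overlap per locus, 1D exceeded 1B in 14 of 15 libraries too, but the exception was then replicate 2 of TAM111 GF wet (0.94). The 1A locus held 22.8% and 40.6% of the summed PRODH2 FPKM in the TAM112 GF wet libraries and 20.9% in replicate 2 of TAM111 GF wet, on the few fragments given above.

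**Figure D4:**
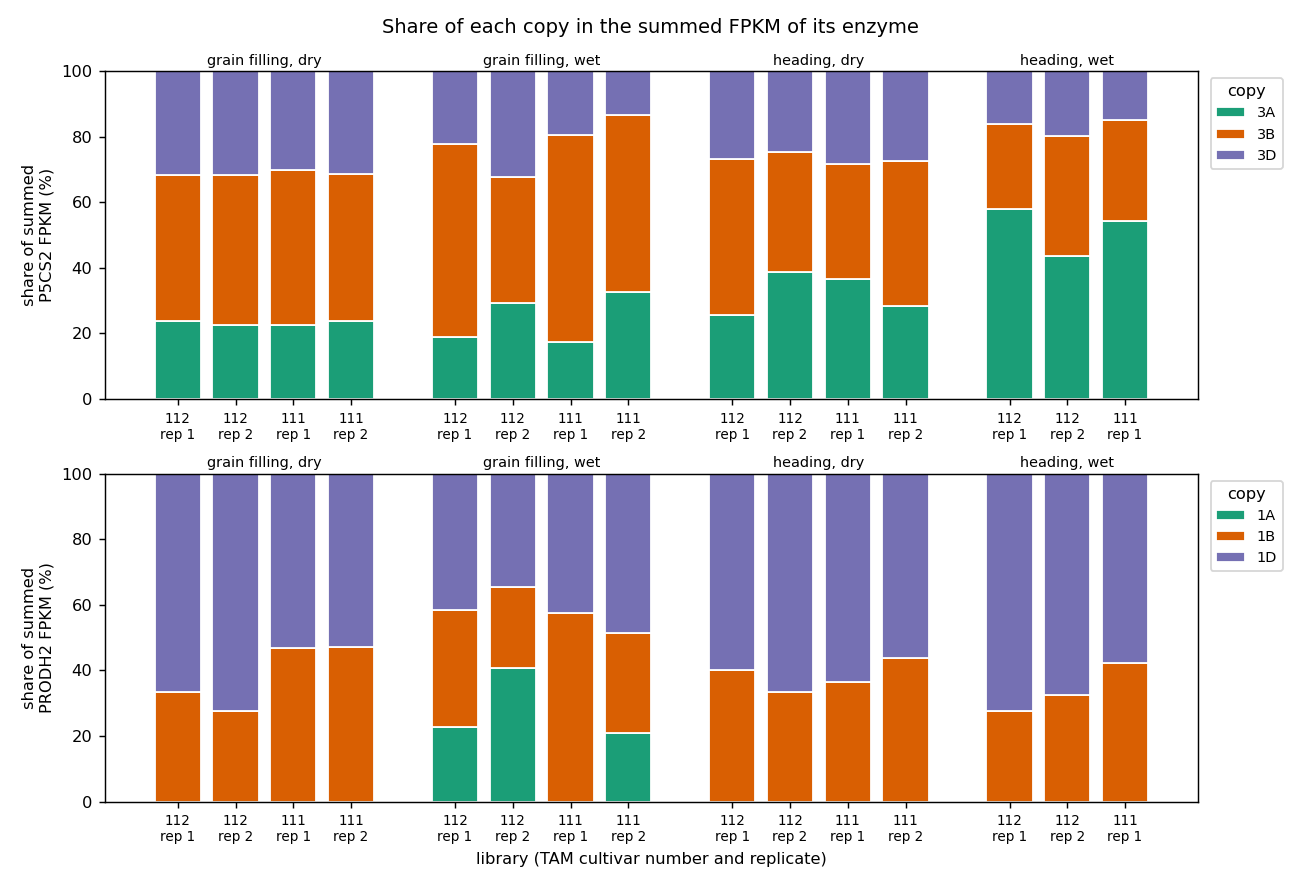
Share in percent of each copy in the summed FPKM of P5CS2 (top) and PRODH2 (bottom), with 1 bar per library, labelled by cultivar number and replicate. The 3A share of P5CS2 is between 43.7% and 58.1% in the HD wet libraries and at most 38.6% elsewhere, and the 1A share of PRODH2 is above 0 in 3 GF wet libraries.

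The balance of synthesis and breakdown transcripts was read in each library as the log2 ratio of summed P5CS2 to summed PRODH2 FPKM, with 1 added to each sum. It is a description of the 6 loci together and carries no test. At GF it was 8.28 and 8.10 in TAM112 dry libraries, against -2.87 and -1.42 in wet ones, and 7.55 and 7.32 in TAM111 dry libraries, against -2.69 and -2.12 in wet ones. With nothing added, summed P5CS2 was 214 to 424 times summed PRODH2 in GF dry libraries, while PRODH2 exceeded P5CS2 in all 4 GF wet libraries. The PRODH2 sum includes the 1A locus, which was above 0 in GF wet libraries only. It held 22.8% and 40.6% of that sum in TAM112 and 20.9% in replicate 2 of TAM111. This locus and the intron entries given above lower the GF wet ratios and widen the GF differences below. A ratio without them was not computed. At HD it was 6.55 and 4.01 in TAM112 dry libraries, against 0.61 and 0.34 in wet ones, and 2.67 and 4.72 in TAM111 dry libraries, against 0.34 in the wet one. All HD ratios were above 0, and the HD wet ratios were close to 0. The mean dry minus wet difference of the log2 ratio was 10.3 in TAM112 and 9.84 in TAM111 at GF, and 4.80 in TAM112 and 3.36 in TAM111 at HD, beside a pooled SD between libraries of a group of 0.97. At HD the difference ran from 3.54 to 6.07 in TAM112 and from 2.34 to 4.38 in TAM111 when 1 replicate was left out, with the ends given by replicates 1 and 2 of the HD dry group of each cultivar.

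**Figure D5:**
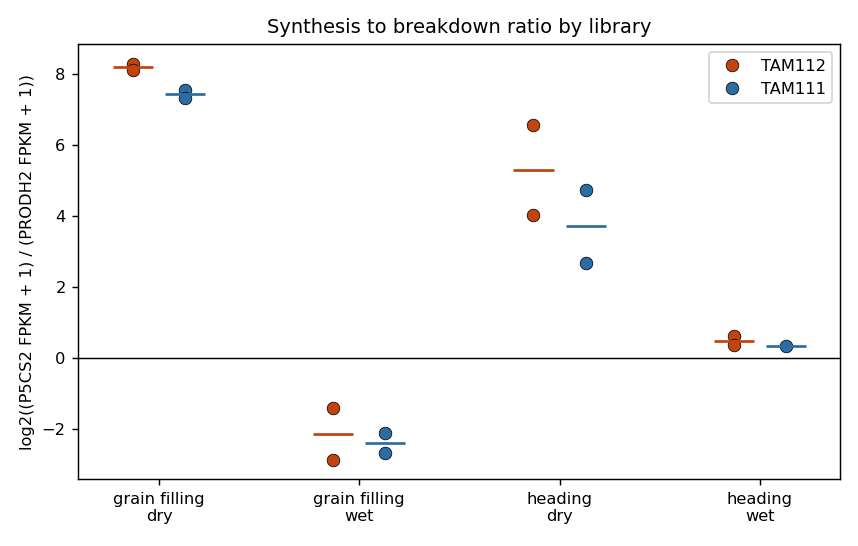
Log2 ratio of summed P5CS2 to summed PRODH2 FPKM (1 added to each sum), with 1 point per library and a bar at the mean of each group; the horizontal line marks equal sums. The 4 GF dry libraries lie between 7.32 and 8.28 and the 4 GF wet libraries between -2.87 and -1.42, with the HD dry libraries at 2.67 to 6.55 and the HD wet libraries at 0.34 to 0.61. The PRODH2 sum includes the 1A locus, which is above 0 in GF wet libraries only and lowers their ratios.

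Across the 15 libraries, the log2 levels of the P5CS2 copies followed each other closely, with Pearson's r between 0.971 and 0.995. The 1B and 1D copies of PRODH2 gave r = 0.946 with each other. With the 1A locus, which had entries in GF wet libraries only, they gave r = 0.62 and 0.63. P5CS2 gave r between -0.93 and -0.86 against 1B and 1D, and between -0.58 and -0.49 against 1A. The libraries share the dry–wet contrast, so these values describe the same pattern as above. The loci most like the mean of the P5CS2 copies were XLOC_011648 (TraesCS1D01G237100, r = 0.99), XLOC_050974 (TraesCS3D01G219400, r = 0.99) and XLOC_035932 (TraesCS3A01G113900, r = 0.99), the last of which is annotated as a galactinol-sucrose galactosyltransferase, an enzyme of raffinose synthesis. Those most like the mean of the PRODH2 loci, 1A included, were XLOC_095364 (TraesCS6B01G267800, r = 0.95), XLOC_097838 (TraesCS6D01G238500, r = 0.95) and XLOC_098039 (TraesCS6D01G278600 and TraesCS6D01G278700, r = 0.94). The median r of all tested loci was 0.10 with P5CS2 and -0.09 with PRODH2.

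The other loci annotated to proline synthesis form a list of 4 loci that the study had called on these samples, so their direction is no independent evidence. At GF, 3 of the 4 were called higher in TAM112 and 2 in TAM111, and 0 were lower, beside 4.03% of all loci called higher in TAM112 and 1.70% in TAM111; at HD 0 of 4 were called in either cultivar (limma, 0 at an unadjusted p below 0.05). The list median was 2.16 in TAM112 and 1.80 in TAM111 at GF, beside a median of all loci of 0.08 and 0.10. The P5CR locus XLOC_045687, for the reductase that forms proline, had 18.5 to 32.4 FPKM in GF dry libraries, against 3.53 to 5.80 FPKM in GF wet libraries, and rose by 2.54 ± 0.38 in TAM112 (adjusted p = 0.0068) and by 2.03 ± 0.38 in TAM111 (adjusted p = 0.0242). At HD it had 9.76 to 14.2 FPKM in dry libraries, against 7.57 to 18.0 FPKM in wet ones. Of the other P5CS loci, XLOC_009252 on 1B rose by 2.24 ± 0.34 in TAM112 (adjusted p = 0.00705) and by 1.81 ± 0.34 in TAM111 (adjusted p = 0.0239), with 7.14 to 18.6 FPKM in GF dry libraries, against 1.78 to 2.29 FPKM in GF wet ones. XLOC_013803 on 1D rose by 2.08 ± 0.31 in TAM112 (adjusted p = 0.00672), with 1.28 ± 0.31 in TAM111 (adjusted p = 0.0662). XLOC_111583 on 7B, listed at 4.197 to 11.2 FPKM in GF dry libraries and 0 to 6.49 FPKM in GF wet ones, was not called.

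Loci of the glutamate and arginine branch and of amino acid transport were chosen in the same way. Of 3 branch loci, 2 were tested, and asparagine synthetase XLOC_068865 reached 1 FPKM in only 4 libraries, all of them dry, so that it passed the filter through the group in which it is high and is described without a test. It had 7.86 and 8.14 FPKM in TAM112 GF dry libraries, against 0.257 and 0.306 FPKM in GF wet ones, and between 0.405 and 1.84 FPKM in TAM111 GF dry libraries, against 0 to 0.122 FPKM in GF wet ones. For glutamate dehydrogenase 2 XLOC_032952, the other branch locus tested, dry and wet libraries overlapped at GF in both cultivars. It had 1.39 and 15.7 FPKM under dry, against 1.30 and 2.54 FPKM under wet, in TAM112. In TAM111 it had 0.885 and 2.09 FPKM, against 1.74 and 1.87 FPKM. At HD in TAM111 it was lower under dry (0.425 and 0.719 FPKM, against 1.30 FPKM). Of 10 transporter loci, 8 were tested, and 3 were called higher and 1 lower at GF in each cultivar, beside 4.03% and 1.79% of all loci in TAM112 and 1.70% and 1.07% in TAM111, with 0 called at HD in either (limma, 2 of 8 in TAM112 and 4 of 8 in TAM111 at an unadjusted p below 0.05). Those that rose in both were the amino acid permease 7 loci XLOC_027253 (3.79 ± 0.63 in TAM112 and 3.34 ± 0.63 in TAM111) and XLOC_018740 (3.30 ± 0.43 and 2.87 ± 0.43), and the vacuolar transporter AVT1A XLOC_095971 (2.62 ± 0.35 and 2.81 ± 0.35). The locus that fell in both was the lysine histidine transporter 1 XLOC_109809 (-1.09 ± 0.25 and -1.76 ± 0.25). In the mean of the 4 pairs of dry and wet groups, 3 of the 8 were called higher and 3 lower, beside 2.65% and 1.74% of all loci. Those called lower were XLOC_109809 (-1.22 ± 0.13), the lysine histidine transporter 2 locus XLOC_104382 (-1.19 ± 0.25) and the vacuolar amino acid transporter 1 locus XLOC_075279 (-1.72 ± 0.23). The median change of the 8 transporters was 1.83 in TAM112 and 1.16 in TAM111 at GF, and -0.075 in TAM112 and -0.41 in TAM111 at HD.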

How the data were processed

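The authors trimmed the reads with Trimmomatic 0.38 and aligned them with TopHat2, and Cufflinks gave the deposited FPKM per library; their merged catalogue holds the loci on IWGSC RefSeq v1.0. Entries were assigned to loci by overlap (bedtools 2.31.1, strand not used) and summed per locus; a locus with no entry was read as 0. The 49568 loci that reached 1 FPKM in 2 or more libraries were tested, less 2514 that shared an entry with another locus. Values of log2(FPKM + 1) were fitted as 8 group means with limma 3.58.1 in R 4.3.3 (mean-variance trend, 7 residual degrees of freedom), and p-values were adjusted over all tested loci by Benjamini and Hochberg. Called means adjusted p below 0.05 and at least 2-fold (interactions: adjusted p only). P-values measure the spread between pooled samples, and fragment numbers cover counting error only. The fit was tested on simulated data. Alternatives were the pseudocount, the filter, scaling, largest entry only, own libraries only, a replicate block and leaving out each library, and, chosen after seeing the data, leaving out 2 libraries together.

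Product names are those of the study's tables. The named loci are the 6 members, the fixed lists, and the 3 tested loci per enzyme with the highest Pearson's r to the mean of its copies. The members and lists were chosen with earlier results of these data known. Depth was estimated from the authors' FPKM confidence bounds; between 65.1% and 67.1% of low entries then came out within 0.05 of a whole fragment. Between 0.932% and 26.1% of FPKM per library fell on no locus. The study describes 3 replicates; 15 libraries were used here. Of the lists, XLOC_001847 and XLOC_066400 were left out for shared entries and XLOC_025569 for low values.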

Additional observations from a re-analysis of the deposited data

Results flagged for a closer look

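The GF minus HD difference of 6 combinations of locus and cultivar had opposite directions under dry and wet, with every library on its side. In TAM112 these were the 3A and 3B copies of P5CS2, where the dry difference exceeded the wet one by 4.14 and 3.42 on the log2 scale. In TAM111 these were the 3A, 3B and 3D copies of P5CS2, by 4.55, 3.73 and 3.998, and the 1D copy of PRODH2, which ran the other way (-1.76). Such opposite separation of all libraries occurred at 5.69% of all loci tested in TAM112 and at 10.5% in TAM111. None of these 6 interactions passed the threshold by itself (limma adjusted p between 0.092 and 0.587). In the mean over both cultivars, chosen after seeing the data, the interaction of 3A (4.34, adjusted p = 0.0205) and 3D (3.75, adjusted p = 0.0394) passed. Without the pair of libraries that stood apart these were 3.95 and 3.50 and, as given above, no longer passed. The GF minus HD difference of 1D under dry in TAM111 was -0.67 with that pair and -0.063 without it.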

How the results depend on the processing

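Dry–wet changes of the P5CS2 copies, 1B and 1D kept their direction in all alternatives run; calls depended more on the setting. Fitting each comparison on its own libraries only leaves fewer residual degrees of freedom. Members called were then 0 at GF in TAM112 (6 with all libraries) and 0 in TAM111 (5). They were 0 at HD in TAM112 (1) and 0 for the stage under dry in either cultivar (2 each). The stage interaction in TAM112 gave 1, the 1A locus. Of all loci tested, 0 were called at GF in either cultivar with this fit, so the loss there was not particular to the members. At HD in TAM112 it called 28 of all loci, against 142 higher and 66 lower with all libraries. No such count is given for HD in TAM111, where the wet group holds 1 library. The HD call in TAM112 also became 0 with a pseudocount of 0.1, no filter, quantile normalization, or the pair of TAM111 libraries left out. Stage calls under dry in TAM111 became 1 (pseudocount 0.1), 0 (no filter), 1 (median-ratio scaling) and 0 (pair left out), and in TAM112 1 (no filter) and 0 (pair left out). With that pair left out, 1 member was called for the stage under wet and for the interaction in each cultivar, in each case the 1A locus, which passed the filter only through GF wet libraries, so that these calls, and its call among the 6 at GF in TAM112, carry no weight. The mean interaction gave 1 with a pseudocount of 0.1 and 1 with the pair left out. These choices of the pair and of the mean were made after seeing the data. Whether the other changes in calls, here and below, are particular to the members or shared by all loci was not tested.

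Leaving out 1 replicate, where a group left with 1 library is assumed to vary like the others, gave 0 to 2 calls at HD in TAM112, 0 for the stage under dry in TAM111 and 0 to 2 in TAM112, 0 to 1 for the stage under wet in TAM111, 0 to 1 for the cultivar difference at GF wet, 0 to 1 and 0 to 2 for the interaction with stage in TAM111 and TAM112, 1 to 3 for its mean and 0 to 1 for the interaction with cultivar at GF. Of these calls, those for the stage under wet and for the interaction with stage in TAM111 were of the 1A locus. Those for the cultivar difference at GF wet and the interaction with cultivar at GF came only without replicate 2 of TAM111 GF wet, which holds the 1A entry of that group. The 1A locus passed the filter only through GF wet libraries, so calls of it carry no weight. Changes that were not called reversed: GF minus HD under dry for 1B ran from -0.73 to 0.052 in TAM111 (0.052 also with the pair left out) and from -0.47 to 0.015 in TAM112, for 1D from -0.50 to 0.38 in TAM112, and under wet for 3D from -1.05 to 0.12 in TAM112. The TAM112 minus TAM111 difference of 3D at HD dry ran from -0.064 to 1.67. The log2 ratio difference at HD ran from 2.34 to 4.38 in TAM111 and from 3.54 to 6.07 in TAM112.

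Replicate numbers did not pair the samples (r of the deviations between groups from -0.038 to 0.086). With a replicate block, 0 members were called at HD in TAM112, 0 and 1 for the stage under dry in TAM111 and TAM112, and 1 in the mean interaction; it changed no other count of members called by over 1.5 times. The cause of these changes was not tested. Depth limits the GF wet P5CS2 values, which rest on 99.5 fragments or fewer per entry, and the dry PRODH2 values, which rest on 21.5 or fewer.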
